A study of Homo sapiens with 6 samples.

Results

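Topoisomerases cut and rejoin DNA strands to release the supercoils, knots and tangles that replication, transcription and chromosome segregation leave behind. Type IB enzymes (TOP1 in the nucleus, TOP1MT in mitochondria) nick one strand and let it rotate, type IIA enzymes (TOP2A, TOP2B) pass a duplex through a transient double-strand break, and type IA enzymes (TOP3A, TOP3B) pass a single strand through a nick. All of them stay bound to the DNA end through a tyrosine while the strand is open, so an enzyme that stalls becomes a protein-linked break, which the tyrosyl-DNA phosphodiesterases TDP1 and TDP2 can unlink, while RMI1 and RMI2 hold TOP3A in the complex with the BLM helicase that dissolves recombination intermediates. The 6 topoisomerase genes, TDP1, TDP2, RMI1 and RMI2 were taken by name as a functional family. All 10 were found under these names among the 57820 genes of each count table, and all 10 passed the filter on low counts that left 19599 genes to test.

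RNA was sequenced from AID-DivA cells, a U2OS-derived human osteosarcoma line that carries an inducible restriction enzyme for making DNA breaks at known sites; every sample was untreated. The comparison, 3 samples of ARID1A-KO cells against 3 of WT cells, addresses which transcripts differ when ARID1A, a DNA-binding subunit of the SWI/SNF chromatin remodelling complex, is lost and no break has been induced. Both groups carry the AID-DivA construct and differ by a CRISPR/Cas9 knockout made with a pair of guides. Knockout clones were established, but which clone or clones gave the 3 samples is not given in the sources used here, so the effect of the genotype and differences between clonal lines cannot be told apart. The study describes its RNA-seq data as coming from independent experiments, counted as biological replicates; the labels do not say whether the samples were separate cultures. The reverse-stranded gene counts summed to between 54512105 and 84088708 per sample. The first principal component, with 75.1% of the variance, separated the genotypes, and on the second, with 11.1%, ARID1A-KO replicate 5 and WT replicate 4 lay farthest apart. ARID1A itself fell from 173 ± 6.67 CPM (read counts scaled to a normalised library size) in WT to 25.9 ± 1.38 in ARID1A-KO (SD, n = 3 each), a log2 fold change of -2.74 in the direction the labels give. Of 8 mesenchymal or osteoblast lineage markers, 5 were expressed and their directions differed: VIM, the most abundant, was called higher (1556 to 2779 TPM in the means), and COL1A1 (log2 fold change -0.47), SPARC (-0.89) and ALPL (-2.45) were called lower. The list, dominated by VIM, had summed levels of 2142 to 2358 TPM (counts per unit of gene length, scaled to the same total in every sample) in WT and 3033 to 3343 TPM in ARID1A-KO, and COL1A2, SP7 and BGLAP were under 1 TPM in every sample. All 4 hematopoietic markers and both endothelial markers were under 1 TPM in every sample, and 4 epithelial markers summed to 8.34 to 14.6 TPM.

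In the coordinates of the deposited tables (GRCh37), TOP1 (ENSG00000198900.5) spans chr20:39657458-39753127 on the plus strand and TOP1MT (ENSG00000184428.8) chr8:144386554-144442149 on the minus strand. TOP2A (ENSG00000131747.10) lies at chr17:38544768-38574202 and TOP2B (ENSG00000077097.9) at chr3:25639475-25706398, both on the minus strand. TOP3A (ENSG00000177302.10) lies at chr17:18174742-18218321 and TOP3B (ENSG00000100038.15) at chr22:22311397-22337213, both on the minus strand. TDP1 (ENSG00000042088.9) lies at chr14:90421283-90511106 on the plus strand and TDP2 (ENSG00000111802.9) at chr6:24650205-24667261 on the minus strand. RMI1 (ENSG00000178966.11) lies at chr9:86595626-86618985 and RMI2 (ENSG00000175643.7) at chr16:11343476-11445619, both on the plus strand. The counts behind the values ran from 571 for RMI2 to 93134 for TOP2A in a sample. Counts and TPM are per gene, summed over the exons, and do not separate isoforms. Other genes overlapping the members held at most 0.165% of a member's mean count, except at RMI2, where antisense SOCS1 held 5.94%, antisense RP11-485G7.5 2.19% and AC009121.1 on the same strand 0.88%.

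The family spanned a wide range of transcript levels, and TOP2A stood far above the rest. Per unit of length, TOP2A reached 558 ± 42.0 TPM in WT cells and 490 ± 58.1 TPM in ARID1A-KO cells (SD, n = 3 each, as for all values given this way). TOP1 and TOP2B came next in WT, with 87.4 ± 3.98 and 84.3 ± 4.08 TPM, and their samples overlapped. The TOP2A mean in WT was 6.38 times that of TOP1, with no overlap between their samples. TOP1MT (46.6 ± 3.12 TPM) and TDP2 (44.1 ± 2.50 TPM) formed the next overlapping pair, and the type IA enzymes TOP3A (33.6 ± 2.48 TPM) and TOP3B (31.1 ± 2.56 TPM) another. RMI1 (14.0 ± 1.18 TPM), RMI2 (12.8 ± 0.920 TPM) and TDP1 (12.4 ± 1.23 TPM) were lowest in WT, and neighbours among these 3 overlapped. TDP2 transcripts thus stood well above those of TDP1, and both RMI genes stood below TOP3A, in every sample. In ARID1A-KO cells the means kept the same order, but TOP1MT (64.1 ± 3.13 TPM) stood clear of TDP2 (40.2 ± 0.705 TPM), and TDP2 overlapped TOP3A (39.5 ± 2.44 TPM). The pseudogenes TOP1P1 and TOP3BP1 had 0 to 1 counts in any sample.

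**Figure D1:**
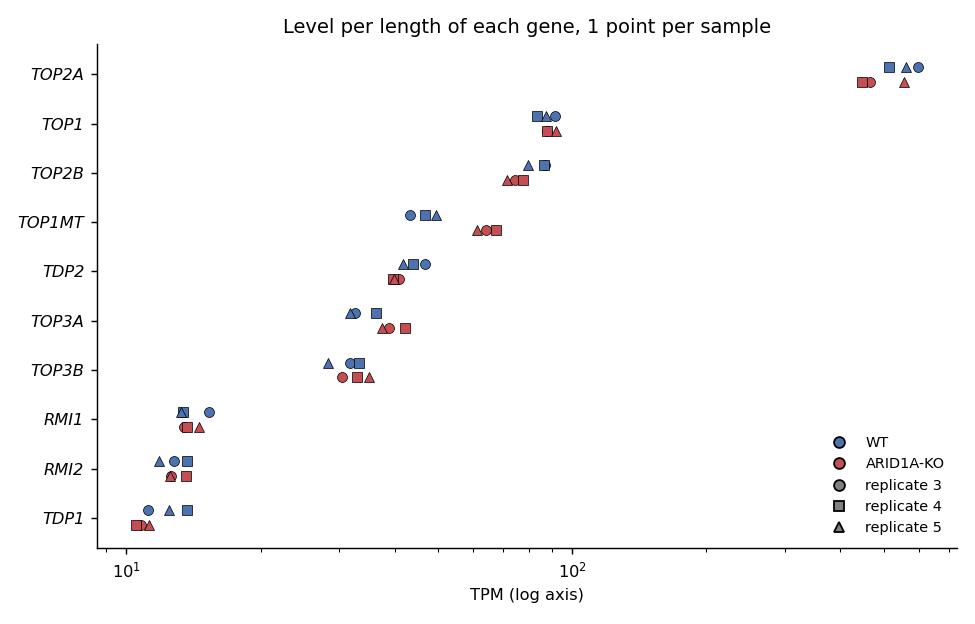
Levels of the 10 genes in TPM on a log axis, 1 point per sample, with blue points for WT, red points for ARID1A-KO and the marker shape giving the replicate number. TOP2A lies between 448 and 598 TPM in the 6 samples, and RMI1, RMI2 and TDP1 all lie under 15.4 TPM.

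Between genotypes, 2 of the 10 genes passed the test at an adjusted p under 0.05, TOP1MT and TOP3A, both higher in ARID1A-KO cells, and none was called lower. The tests are edgeR's quasi-likelihood test on the counts with Benjamini-Hochberg adjustment over all genes tested. The 2 of 10 stand beside 36.2% of all genes tested, with 17.8% of genes called higher and 18.4% called lower, so the family did not exceed the background. Normalised counts of the genotypes did not overlap for 2 of the 10 genes (TOP1MT and TOP2B), against 49.5% of all genes. The median log2 fold change of the 10 was 0.0096, beside 0.0066 for all genes tested, and all 10 lay between -0.19 and 0.47.

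**Figure D2:**
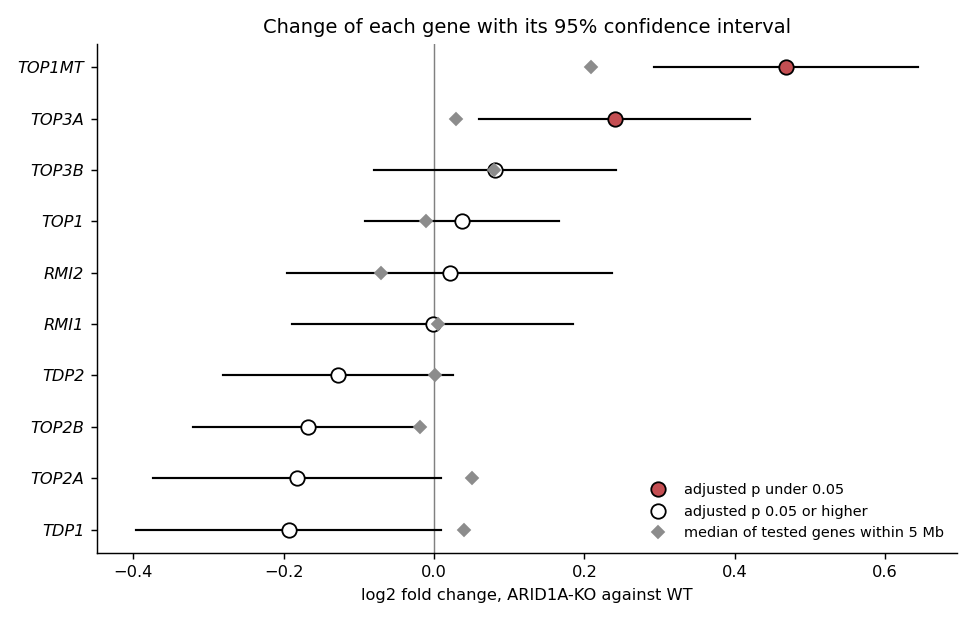
Log2 fold change of each gene, ARID1A-KO against WT, on the horizontal axis, with its 95% confidence interval as a line, filled circles for an adjusted p under 0.05, open circles for the others, and a grey diamond for the median of all tested genes within 5 Mb. TOP1MT (0.47) and TOP3A (0.24) are the filled points, and the diamond of TOP1MT stands at 0.21.

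TOP1MT, a topoisomerase that acts on the mitochondrial genome, showed the larger of the 2 rises. Its normalised counts in WT replicates 3, 4 and 5 were 83.97, 92.3 and 98.0 CPM, and in the ARID1A-KO replicates 130.6, 132.7 and 116.2 CPM. Every ARID1A-KO sample lay above every WT sample. This was a rise of 38.3%, a log2 fold change of 0.47 (SE 0.08, 95% confidence interval 0.29 to 0.64, edgeR adjusted p = 0.00155). The call held in all 16 alternative settings, in which the log2 fold change ranged from 0.26 to 0.53. The genes around TOP1MT were also shifted upward: of 111 tested genes within 5 Mb, 38 were called higher and 6 lower, and their median was 0.21. Relative to this median, TOP1MT stood at 0.26 (edgeR adjusted p = 0.0316). Whether this regional shift has a part in the change of TOP1MT was not tested.

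TOP1, which relaxes supercoils ahead of replication and transcription in the nucleus and is the target of camptothecins, showed no detectable change. WT samples had 102.8, 95.4 and 100.3 CPM and ARID1A-KO samples 104.3, 100.2 and 101.8 CPM. The samples of the genotypes overlapped, with a log2 fold change of 0.04 and a 95% confidence interval of -0.09 to 0.17 (edgeR adjusted p = 0.651). The ratio of TOP1 to TOP1MT, taken on TPM within each sample, was 2.11, 1.78 and 1.76 in WT and 1.38, 1.30 and 1.51 in ARID1A-KO. These ratios did not overlap between genotypes, but with 3 samples against 3 the two-sided exact permutation test cannot go below p = 0.1, the value it gave (0.5 after adjustment over the 5 gene pairs compared).

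Other genes of mitochondrial DNA maintenance were read beside TOP1MT. Of 11 such genes, all tested, 2 rose and none fell, with a median log2 fold change of 0.068; 17.8% of all genes were called higher. The risers were POLRMT, the mitochondrial RNA polymerase, with a log2 fold change of 0.89 (SE 0.11, edgeR adjusted p = 0.000253), and TFAM, which packages the mitochondrial genome, with 0.31 (SE 0.07, edgeR adjusted p = 0.00591). POLRMT had 88.5, 117.2 and 107.9 CPM in WT and 187.7, 214.4 and 179.1 CPM in ARID1A-KO. TFAM had 131.7, 124.2 and 115.5 CPM in WT and 159.6, 150.2 and 149.9 CPM in ARID1A-KO. Neither gene overlapped between genotypes. With the median of its neighbours taken off, POLRMT kept its call (0.68, edgeR adjusted p = 0.00154) and TFAM lost it (0.04, edgeR adjusted p = 0.666); the 22 genes tested around TFAM had a median of 0.27. The genes whose profile over the 6 samples was closest to that of TOP1MT were SHC1, an adaptor of receptor tyrosine kinases, AHCY, which hydrolyses S-adenosylhomocysteine, and TMBIM1. Their centred log2 CPM differed from that of TOP1MT by a root mean square of 0.0269, 0.0276 and 0.0312, out of 13081 genes searched.

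TOP2A, the proliferation-linked type IIA enzyme that untangles sister chromatids and is the target of etoposide and doxorubicin, did not pass the test. Its WT samples had 1158.6, 1013.8 and 1109.2 CPM and its ARID1A-KO samples 951.1, 882.5 and 1058.2 CPM. ARID1A-KO replicate 5 lay inside the WT range and the other ARID1A-KO samples below it. The log2 fold change was -0.18 (SE 0.09, 95% confidence interval -0.37 to 0.01, edgeR adjusted p = 0.126). Without ARID1A-KO replicate 5 it was -0.25 and was called lower (edgeR adjusted p = 0.0317), and without the other samples in turn it stayed uncalled, with adjusted p up to 0.402. In bulk RNA, fewer cells of a type (here, cells in late cell cycle phases) and less RNA per cell cannot be told apart.

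The genes of G2 and M phase, in which TOP2A peaks, were read beside it. Of 19 such genes, 3 were called higher and 2 lower, against 36.2% of all genes called, with a median log2 fold change of -0.11. Their summed levels were 4525, 4147 and 4483 TPM in WT and 3980, 4020 and 4616 TPM in ARID1A-KO, so that ARID1A-KO replicate 5 was the highest of all samples. Without it, none was called higher and 6 were called lower, with a median of -0.17. The higher calls were also all lost without WT replicate 4 (3 lower, median -0.17) and without ARID1A-KO replicate 3 (2 lower, median -0.099). The called genes with the largest changes were CCNA2 (cyclin A2, -0.28, edgeR adjusted p = 0.00458), NUSAP1 (a spindle protein, -0.28, edgeR adjusted p = 0.0127) and KIF11 (a spindle motor, 0.24, edgeR adjusted p = 0.0362). KIF11 stood at -0.02 once the median of its neighbours was taken off, and its call was lost without WT replicate 4 or 5 or without ARID1A-KO replicate 3 or 5 (edgeR adjusted p from 0.0636 to 0.104). NUSAP1 lost its call without ARID1A-KO replicate 4 (edgeR adjusted p = 0.0692). Of 16 S phase genes, 4 rose and 4 fell, against 17.8% of all genes called higher and 18.4% lower, with a median of -0.073, among them E2F1 (0.60), CCNE2 (cyclin E2, -0.66) and the helicase subunit MCM2 (-0.47, and -0.06 with the median of its neighbours taken off, edgeR adjusted p = 0.466). The part of cell cycle phase in the TOP2A values was not tested.

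TOP2B, the type IIA enzyme that non-dividing cells also express and that acts at promoters, was lower in every ARID1A-KO sample without passing the adjusted threshold. It had 155.9, 157.5 and 145.7 CPM in WT and 141.1, 141.9 and 125.9 CPM in ARID1A-KO. The genotypes did not overlap, but the gap between the lowest WT and the highest ARID1A-KO sample was smaller than the spread within either genotype. The log2 fold change was -0.17 (SE 0.07, 95% confidence interval -0.32 to -0.01, edgeR adjusted p = 0.0827), and no alternative setting called it, the lowest adjusted p being 0.0528. The TPM ratio of TOP2A to TOP2B was 6.64 ± 0.587 in WT and 6.60 ± 1.06 in ARID1A-KO, with overlapping samples (two-sided exact permutation p = 1, n = 3 each).

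The promoters of the type IIA paralogs are printed because they differ in how many elements of cell cycle genes they hold. Each window holds 300 bases across the annotated start of a transcript, from RefSeq (GRCh38.p14), and runs 5′ to 3′ along the gene. Capitals mark the letters CCAAT or ATTGG (the CCAAT box, bound by NF-Y, on either strand) and TTTGAA or TTCAAA (the letters of the CHR element that G2 and M genes carry, on either strand). The TOP2A window is chr17:40417847-40418146, minus strand, and the TOP2B windows, at a pair of annotated starts, are chr3:25664858-25665157 and chr3:25664323-25664622, minus strand.
TOP2A: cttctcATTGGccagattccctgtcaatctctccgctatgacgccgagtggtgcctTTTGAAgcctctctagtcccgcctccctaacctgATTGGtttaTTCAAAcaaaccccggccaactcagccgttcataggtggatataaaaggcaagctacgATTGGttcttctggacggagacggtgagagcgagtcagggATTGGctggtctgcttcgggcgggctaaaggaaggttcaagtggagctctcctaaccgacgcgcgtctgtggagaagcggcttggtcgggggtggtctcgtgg
TOP2B, upstream start: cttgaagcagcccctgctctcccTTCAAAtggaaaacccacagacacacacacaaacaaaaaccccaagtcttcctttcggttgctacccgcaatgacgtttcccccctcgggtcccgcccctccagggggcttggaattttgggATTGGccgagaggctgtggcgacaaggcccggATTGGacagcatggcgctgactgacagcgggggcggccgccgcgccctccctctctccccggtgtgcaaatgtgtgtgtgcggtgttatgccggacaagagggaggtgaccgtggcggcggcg
TOP2B, downstream start: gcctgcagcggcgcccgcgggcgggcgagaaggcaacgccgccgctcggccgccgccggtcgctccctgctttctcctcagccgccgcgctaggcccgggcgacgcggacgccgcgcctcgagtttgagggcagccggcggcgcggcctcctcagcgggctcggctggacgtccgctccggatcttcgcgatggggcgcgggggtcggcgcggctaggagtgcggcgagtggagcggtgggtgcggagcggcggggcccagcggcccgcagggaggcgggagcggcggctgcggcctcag

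The TOP2A window holds 4 CCAAT boxes and 2 CHR matches, the upstream TOP2B window 2 and 1, and the downstream TOP2B window none of either. Across 35116 windows of the same length, 34.6% hold a CCAAT box, 0.991% hold 4 or more, and 15.2% hold a CHR match. Median GC content over these windows was 58.7%. It was 55.7% in the TOP2A window, 62.3% in the upstream TOP2B window and 80% in the downstream one. The part of GC content in the number of matches was not tested. Of 17 windows of 15 G2 and M phase genes, 15 hold a CCAAT box and 11 a CHR match. Windows were found for 8 of the 10 genes, and none for TOP1MT and RMI2. Outside the type IIA genes, RMI1 holds 2 CCAAT boxes in 1 of its 2 windows, TDP1 holds 1 CHR match, and the windows of TOP1, TOP3A, TOP3B and TDP2 hold neither. These are matches of letters, not measured binding sites.

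**Figure D3:**
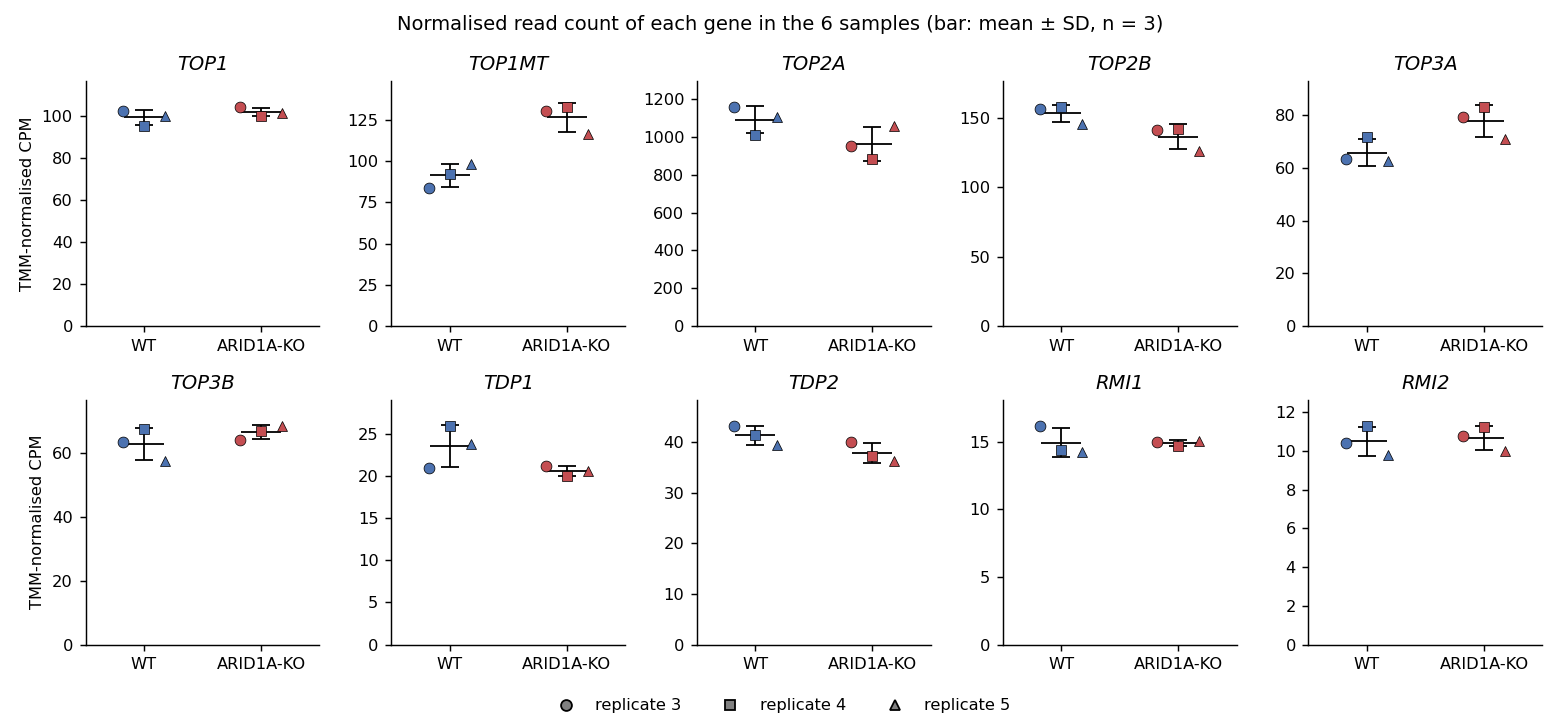
Normalised read count (TMM-normalised CPM) of each of the 10 genes in the 3 WT samples (blue) and the 3 ARID1A-KO samples (red), with the marker shape giving the replicate number and bars for mean ± SD; every axis starts at 0. TOP1MT stands apart between genotypes, the TOP2A value of ARID1A-KO replicate 5 (1058.2 CPM) lies among the WT values, and TOP3A overlaps by its lowest ARID1A-KO sample.

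TOP3A, the type IA enzyme that decatenates recombination intermediates in the nucleus and also works in mitochondria, was the other gene that rose. WT samples had 63.1, 71.6 and 62.6 CPM and ARID1A-KO samples 79.2, 82.9 and 71.1 CPM. ARID1A-KO replicate 5 lay just under WT replicate 4, and the genotypes otherwise separated, while in TPM they did not overlap. The rise was 18.1%, a log2 fold change of 0.24 (SE 0.08, 95% confidence interval 0.06 to 0.42, edgeR adjusted p = 0.0417). This call was close to the threshold and was lost in 6 of 16 alternative settings, in which the log2 fold change stayed between 0.19 and 0.23. Leaving out WT replicate 3, WT replicate 5, ARID1A-KO replicate 3 or ARID1A-KO replicate 4 gave edgeR adjusted p of 0.133, 0.132, 0.111 and 0.162, an offset on GC content gave 0.0532 at a log2 fold change of 0.20, and taking off the neighbours' median of 0.03 gave 0.0727 at 0.21. Without ARID1A-KO replicate 5 the log2 fold change was 0.30 and the call held (edgeR adjusted p = 0.0149). The genes closest to TOP3A in profile over the 6 samples were PDLIM3, a LIM-domain protein of the cytoskeleton, the RNA helicase DDX56 and the RNA polymerase III subunit POLR3E, at root mean square differences in centred log2 CPM of 0.0214, 0.0220 and 0.0253. Their own log2 fold changes were 0.22, 0.25 and 0.22. Closeness to the TOP3A value follows from the choice by profile over the same samples.

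The promoter window of TOP3A, printed as that of a gene that rose, lies at chr17:18314945-18315244 (GRCh38.p14, RefSeq, minus strand) and carries no capitals, since neither element occurs in it.
TOP3A: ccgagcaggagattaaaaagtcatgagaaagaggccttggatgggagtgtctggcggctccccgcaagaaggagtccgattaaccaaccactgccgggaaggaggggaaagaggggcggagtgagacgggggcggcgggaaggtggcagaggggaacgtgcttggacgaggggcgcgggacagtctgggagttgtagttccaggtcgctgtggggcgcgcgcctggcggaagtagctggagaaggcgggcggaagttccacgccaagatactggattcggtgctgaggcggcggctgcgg

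TOP3B, the type IA enzyme that also acts on RNA, showed no detectable change. It had 63.4, 67.7 and 57.7 CPM in WT and 64.2, 66.9 and 68.6 CPM in ARID1A-KO. The ranges overlapped, and the log2 fold change was 0.08 (95% confidence interval -0.08 to 0.24, edgeR adjusted p = 0.411), with the opposite sign (-0.03) under an offset on GC content. The TPM ratio of TOP3A to TOP3B was 1.08 ± 0.0469 in WT and 1.21 ± 0.120 in ARID1A-KO, with overlapping samples (two-sided exact permutation p = 0.3, n = 3 each, 0.75 after adjustment over the 5 pairs), so a different change of the type IA paralogs was not shown.

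The RMI subunits showed no detectable difference between genotypes. RMI1, which binds TOP3A directly, had 16.2, 14.4 and 14.2 CPM in WT and 14.9, 14.7 and 15.1 CPM in ARID1A-KO, a log2 fold change of -0.0017 (95% confidence interval -0.19 to 0.18, edgeR adjusted p = 0.990). RMI2, which binds RMI1, had 10.4, 11.3 and 9.81 CPM in WT and 10.8, 11.2 and 9.999 CPM in ARID1A-KO, a log2 fold change of 0.02 (95% confidence interval -0.20 to 0.24, edgeR adjusted p = 0.889). The samples of the genotypes overlapped for both genes. The TPM ratio of RMI1 to RMI2 was 1.10 ± 0.112 in WT and 1.08 ± 0.0783 in ARID1A-KO (two-sided exact permutation p = 0.8, n = 3 each).

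Among 7 other partners of the type IA enzymes, none rose and 2 fell, with a median log2 fold change of -0.078, against 36.2% of all genes called in either direction. An offset on GC content gave 1 higher and 3 lower, with a median of -0.0022. BLM, the helicase partner of TOP3A, stood at 0.08 (SE 0.08, edgeR adjusted p = 0.516). TDRD3, the scaffold that brings TOP3B to chromatin and to messenger RNA, fell from 9.98, 9.96 and 10.8 CPM in WT to 5.02, 4.95 and 4.94 CPM in ARID1A-KO. The genotypes were far apart, at a log2 fold change of -1.04 (SE 0.10, edgeR adjusted p = 5.31e-05). The 4 other genes tested within 5 Mb of TDRD3 on chromosome 13 were all called lower as well. They ranged from -8.76 to -0.78 around a median of -1.23, relative to which TDRD3 stood at 0.18 (edgeR adjusted p = 0.172). FXR1, an RNA-binding relative of FMR1, fell by 0.41 on the log2 scale (edgeR adjusted p = 0.000802) among 72 neighbours with a median of -0.26, and stood at -0.15 relative to them (edgeR adjusted p = 0.0851).

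The phosphodiesterases both had lower means in ARID1A-KO cells, and neither passed the test. TDP1, which removes TOP1 peptides from 3′ ends, had 20.9, 26.0 and 23.8 CPM in WT and 21.3, 19.997 and 20.6 CPM in ARID1A-KO. WT replicate 3 lay inside the ARID1A-KO range, and the log2 fold change was -0.19 (SE 0.09, 95% confidence interval -0.40 to 0.01, edgeR adjusted p = 0.125). Without WT replicate 3 it was -0.28 and was called lower (edgeR adjusted p = 0.0339). TDP2, which removes TOP2 peptides from 5′ ends, had 43.3, 41.4 and 39.5 CPM in WT and 40.0, 37.3 and 36.3 CPM in ARID1A-KO. In CPM the highest ARID1A-KO sample lay above the lowest WT sample, while in TPM the genotypes did not overlap. The log2 fold change was -0.13 (SE 0.07, 95% confidence interval -0.28 to 0.03, edgeR adjusted p = 0.173). The TPM ratio of TDP1 to TDP2 was 0.283 ± 0.0383 in WT and 0.270 ± 0.00996 in ARID1A-KO (two-sided exact permutation p = 0.7, n = 3 each).

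**Figure D4:**
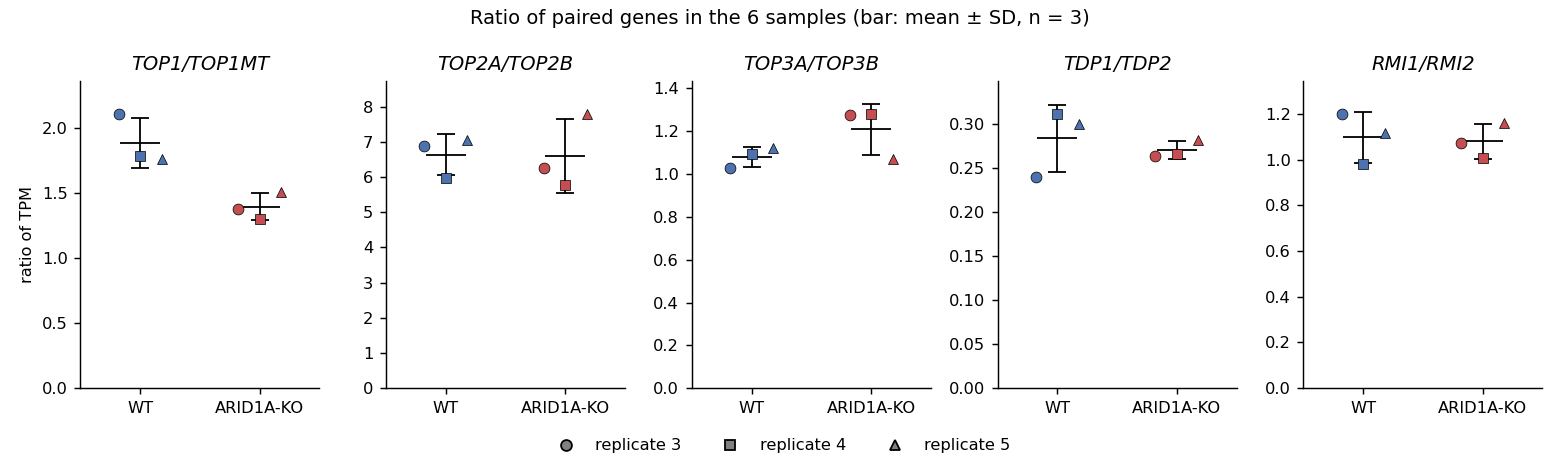
Ratio of TPM within each sample for the 5 gene pairs, with WT in blue, ARID1A-KO in red, marker shapes for the replicate numbers, and bars for mean ± SD; every axis starts at 0. TOP1/TOP1MT is 1.76 to 2.11 in WT and 1.30 to 1.51 in ARID1A-KO, and the other ratios overlap between genotypes.

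Genes that act with TDP1 on TOP1 adducts mostly did not pass the test. Of 19, 2 rose and 1 fell, against 36.2% of all genes called, with a median log2 fold change of 0.066. With an offset on GC content, 1 was called higher and 3 lower, with a median of 0.019. PARP2, which senses strand breaks, rose by 0.49 (SE 0.06, edgeR adjusted p = 0.000283), from 53.0, 53.5 and 49.7 CPM in WT to 75.1, 70.6 and 73.5 CPM in ARID1A-KO. ERCC1, part of the nuclease that trims blocked 3′ ends, rose by 0.22 (edgeR adjusted p = 0.0239), a call kept in 10 of 16 alternative settings. It was lost without WT replicate 3, ARID1A-KO replicate 3 or ARID1A-KO replicate 4 (edgeR adjusted p from 0.0704 to 0.098). The ERCC1 call was also lost with an offset on GC content, with or without the replicate block. With the median of neighbours taken off, neither PARP2 (0.17, edgeR adjusted p = 0.0565) nor ERCC1 (0.09, edgeR adjusted p = 0.294) passed the test. PIAS4, a SUMO ligase that tags trapped topoisomerases, fell from 59.4, 57.4 and 61.6 CPM in WT to 38.3, 41.5 and 41.9 CPM in ARID1A-KO. Its log2 fold change of -0.55 (SE 0.06, edgeR adjusted p = 0.000199) kept its call in all 16 alternative settings, and its neighbours had a median of -0.01. SPRTN, a protease that digests proteins crosslinked to DNA, stood at 0.05 (edgeR adjusted p = 0.616).

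Of 12 genes that act with TDP2 on TOP2 adducts and on the breaks they leave, 1 rose and 1 fell, against 36.2% of all genes called, with a median log2 fold change of 0.028. Both belong to the ligase complex of end joining. XRCC4, the scaffold of that complex, rose from 25.9, 25.0 and 25.2 CPM in WT to 33.7, 32.5 and 35.2 CPM in ARID1A-KO (log2 fold change 0.41, SE 0.07, edgeR adjusted p = 0.00115). LIG4, its catalytic subunit, fell from 28.7, 23.2 and 23.7 CPM in WT to 11.5, 11.4 and 14.2 CPM in ARID1A-KO (log2 fold change -1.02, SE 0.12, edgeR adjusted p = 0.000195). The samples of the genotypes did not overlap for either gene. LIG4 also lies on chromosome 13, among 23 neighbours whose median was -0.61, and relative to them it stood at -0.42 (edgeR adjusted p = 0.0243). ZNF451, the SUMO ligase that helps TDP2 reach TOP2, stood at 0.02 (edgeR adjusted p = 0.847), and at 0.29 (edgeR adjusted p = 0.00707) with the neighbours' median of -0.27 taken off. An offset on GC content gave 5 calls in this list in place of 2, 4 higher and 1 lower, with a median of 0.10. The offset on length gave 3 higher and 1 lower. Taking off the neighbours' median gave 3 higher and 2 lower, with a median of 0.11. Of the pair of meiotic relatives of the topoisomerases, SPO11 was too low to test and TOPOVIBL stood at 0.15 (edgeR adjusted p = 0.234).

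**Figure D5:**
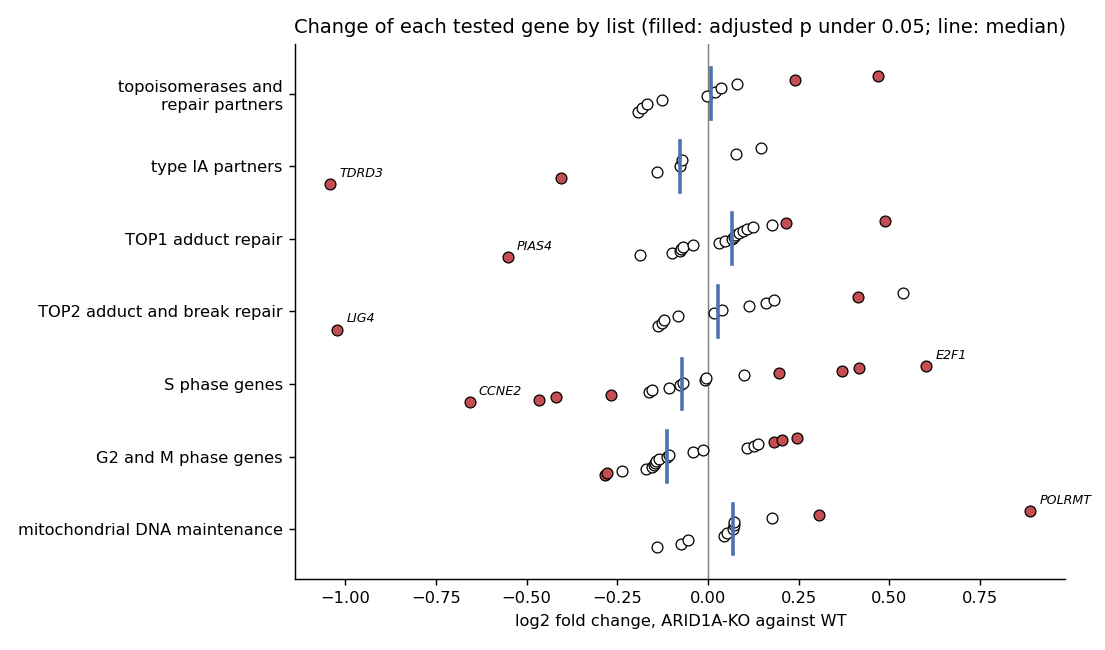
Log2 fold change, ARID1A-KO against WT, of every tested gene of the 10-gene family and of 6 of the lists (1 row each; the meiotic pair and the markers are not drawn), with filled points for an adjusted p under 0.05, open points for the others, and a blue line at the median of each list. The medians of the 7 groups shown lie between -0.11 and 0.068, and TDRD3, LIG4 and POLRMT are the genes farthest from 0.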

How the data were processed

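RNA was profiled in 6 samples of AID-DivA cells, 3 WT and 3 ARID1A-KO, grouped by the genotype label. The authors ran the Roddy workflow, in which STAR placed paired-end reads on GRCh37, and counted reads per gene with featureCounts; the annotation they name is v29 lift 37, but 0 of the 57820 identifiers carry the suffix of a lifted annotation. The labels give polyA RNA and the protocol a total RNA kit. The deposited tables hold read counts without regard to strand and for each strand. The deposited TPM values used here are the columns that sum to 1000000 over all genes of a sample; FPKM and the other TPM columns were not used. Reverse-stranded counts were used, since counts on the other strand came to 5.83% to 6.15% of them. No blank or summary rows entered the tests.

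Genes were kept by filterByExpr and scaled by TMM, and CPM are TMM-normalised. Differences were tested with edgeR 4.0.16 (quasi-likelihood, limma 3.58.1, R 4.3.3) and adjusted over 19599 genes, called at an adjusted p under 0.05; the median SE of a log2 fold change was 0.12 over these genes. Ratios of TPM were tested by exact permutation (SciPy 1.17.1), which cannot go below p = 0.1 with 3 samples against 3 for any of the pairs. On simulated counts of the same comparison (19332 genes), 29 of 66 genes changed by 0.5 on the log2 scale were recovered, 57 of 65 changed by 1 and 65 of 67 changed by 2, with 10 false calls of 161. Replicates differed by more than sampling noise in every pair, so no pair was a mere re-sequencing of the same library. The chi-square per gene was 7.57 for ARID1A-KO replicates 3 and 4 and 18.1 to 32.9 for the other pairs. It cannot tell whether samples came from the same culture or RNA. Alternatives were DESeq2 1.42.0, RLE scaling, counts without strand, other filters, offsets on GC content (a value for 97.0% of genes) or length, the replicate block, each sample left out, a threshold of 0.01, and the median of neighbours within 5 Mb taken off; the last was added for genes outside the family after seeing the data. The neighbours' median was taken off as a fixed value, so the adjusted p of that alternative leaves out the median's own error. Intervals come from the fit. Counting error is larger for genes of low counts, such as NHEJ1 of the TOP2 list, which had 20 to 48 counts in a sample.

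The members and gene lists were chosen with earlier results of these data known. Named genes are the 10 members, ARID1A, BLM, TDRD3, SPRTN, ZNF451, the 3 called genes of largest change per list, and the 3 genes of mean log2 CPM over 1 with the profile closest to each called member. The lineage markers, the overlapping genes, the pseudogenes, SPO11, TOPOVIBL and NHEJ1 were named after their values were seen. 1 endothelial marker, PECAM1, was not matched by name. Promoter windows run from 250 bases before to 50 after a RefSeq start.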

Additional observations from a re-analysis of the deposited data

How the results depend on the processing

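At an adjusted p under 0.01 in place of 0.05, 4414 in place of 7099 genes were called (2044 higher, 2370 lower), and 1 of the 10 family members in place of 2. The offset on GC content also left 1. Leaving out each sample in turn gave 1 to 3 called members, with TOP2A added without ARID1A-KO replicate 5 and TDP1 added without WT replicate 3. Counts without regard to strand put TOP1 in ARID1A-KO at 86.6 TPM in place of 89.3 and moved no other level beyond its SD. Replicate numbers 3, 4 and 5 occur in both genotypes, and whether they pair the samples is not settled. Correlations of same-numbered deviations were -0.18, 0.27 and 0.18, and those of other pairs ranged from -0.42 to 0.30. With the numbers as a replicate block, 7477 genes and 2 members were called. Some values near 0 changed sign. Those of RMI1 became 0.00037 under the block, 0.088 under the GC offset with or without the block, and -0.037 to 0.051 with a sample left out. Those of RMI2 became -0.027 under the block with the GC offset, -0.029 under the GC offset, -0.042 under the length offset, and -0.028 to 0.076 with a sample left out. TOP3B became -0.030 under the GC offset and -0.025 with the block as well, and TOP1 -0.0024 under the length offset. With a sample left out, BLM ranged from -0.0010 to 0.13 and ZNF451 from -0.029 to 0.053, and the log2 ratio difference ranged from -0.14 to 0.076 for TOP2A/TOP2B, -0.18 to 0.011 for TDP1/TDP2 and -0.10 to 0.043 for RMI1/RMI2. With the median of neighbours taken off, the values of BLM, TDRD3, SPRTN and KIF11 became -0.017, 0.18, -0.0028 and -0.019. The cause of these changes was not tested. The simulation above had 161 calls, against 7099 in the data, and gave every gene the same spread between replicates. Its recovery near a log2 change of 0.5 therefore does not measure what the tests here could detect.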
